A study of Mus musculus with 6 samples.

Results

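The proteasome genes examined here are the 45 genes whose array symbol begins with Psma, Psmb, Psmc, Psmd, Psme or Psmg and a number, without the interferon-inducible subunits Psmb8 and Psmb9 and without Psmc3ip, among 18193 genes with a probe set of their own. Membership came from the symbol. The measured value the choice used was the mean log2 intensity over all 6 arrays, which picked the brightest probe set of each gene and takes no account of population. The arrays measured RNA of cells sorted from wild-type C57BL/6 mice by flow cytometry, with no other genotype, treatment or age named. LSK cells were low in lineage markers and carried Sca1 and Kit, a gate that holds stem cells and multipotent progenitors. LK cells were low in lineage markers, carried Kit and lacked Sca1, a gate that holds committed progenitors. Each population had 3 arrays. Both gates are mixtures, and the labels do not say how many mice each sample came from, so each p-value reflects the scatter of these samples alone, which may be partly technical. With so few arrays, every value is of limited precision.

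The proteasome is the large protease that degrades ubiquitin-tagged proteins in the cytosol and nucleus. Its barrel-shaped core is built of outer rings of alpha subunits and inner rings of beta subunits, of which 3 kinds cut peptide bonds. A regulatory particle sits on the end of the barrel: its base holds a ring of ATPases that unfold substrates, and its lid removes the ubiquitin chain. Separate chaperones help to assemble the core and the base, and alternative activators can take the place of the regulatory particle. Blood stem cells are known for a low rate of protein synthesis and for needing tight control of protein quality.

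The labels were checked against marker genes. Of 6 measured stem and multipotent progenitor markers, 6 were higher in LSK and 0 lower, and of 8 committed progenitor markers 0 were higher and 7 lower in LSK. Of the B-cell markers 3 of 5, of the T-cell and NK-cell markers 6 of 6 and of the endothelial and stromal markers 6 of 6 had a mean log2 under 4 in both populations, close to the floor of the array. None of these lists had a member past the threshold. The summed intensity of 7 mature neutrophil markers was high in both gates, from 13088 to 20195 in LSK and from 9950 to 19058 in LK, with 0 past the threshold. In the fit that took the replicate number as a block 4 of the 7 were higher in LSK (limma adjusted p = 0.0154 for Ltf, 0.0378 for Camp, 0.0431 for Lcn2 and 0.0439 for Ngp), each in 3 of 3 same-numbered pairs. The summed intensity of 6 macrophage markers ran from 47.1 to 90.6 in LSK and from 56.2 to 339.8 in LK, where Vcam1 was the brightest. C1qb was higher in LSK, and Vcam1 was lower with the block (limma adjusted p = 0.0363). The part of these cells in the results below was not tested. The replicate 2 arrays stood apart from the others, with an upper quartile of 22.1 in LSK and 20.8 in LK against 24.3 to 25.8 elsewhere. For the control genes Actb and Gapdh, the signal of the 3' probe sets exceeded that of the 5' ones, a measure of RNA integrity and amplification, by a mean log2 of 2.32, 2.32 and 3.30 on the LSK arrays and 3.26, 3.94 and 3.40 on the LK arrays, in replicate order.

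Of the 45 proteasome genes, 6 were lower in LSK than in LK cells, 0 were higher and 39 did not pass the threshold, an adjusted p of 0.05 in limma with Benjamini-Hochberg adjustment over all 18193 genes. Over the whole array 2.89% of genes were lower and 3.84% higher in LSK by the same test. The 6 genes were the base ATPase Psmc6, the lid subunits Psmd11, Psmd12 and Psmd14, the core assembly chaperone Psmg2 and the activator Psme4. Their levels in LSK were lower by 1.73-fold (Psmd14) to 2.26-fold (Psmg2). The median log2 difference, LSK minus LK, was -0.48 over the 45 genes and -0.02 over all genes, and 35 of the 45 lay below 0 (77.8%, against 53.4% of all genes). In 19 of the 45 genes the 3 LSK arrays all lay below the 3 LK arrays, against 14.8% of all genes. In 1, Psme1, they all lay above, against 13.2%.

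The call of these 6 genes rested on few arrays and on the fit. A fit that took the replicate number as a block had 14 members lower and 0 higher, against 7.36% and 7.02% of all genes, and the 14 held the earlier 6. In fits with an array left out, 0 members passed when that array was replicate 1 or 2 of LSK or replicate 1 or 3 of LK. Of all genes, 0.418% to 1.53% were lower in those fits. There were 2 members when it was LK replicate 2 (Psmd11 and Psmd14; 1.71% of all genes lower) and 10 when it was LSK replicate 3 (3.77%). Without both replicate 2 arrays 2 others passed, Psmc1 and Psmc5 (0.912%). The number of members was also 0 when the fit held that excess of 3' signal as a covariate, a fit in which 0 genes of the whole array were lower and 25 higher. The choice of probe set also ended calls. With all probe sets of a gene averaged, Psmd11 differed by -0.15, Psme4 by -0.22, Psmg2 by -0.60 and Psmc6 by -0.96, and none of these 4 passed. Each of these averages took in probe sets with a mean log2 under 4, near the floor, which limits what the average can show. With a probe set of unique suffix taken first, Psmd14 and Psmg2 passed, but both kept the probe set shown, so the fit did not try another. Psmc6 was then shown by a probe set with a mean log2 of 3.12 and differed by -0.50. Psmd12 also kept its probe set and did not pass in that fit. Over all genes, 1225 passed with every array in the fit, against 306 to 1269 with an array or both replicate 2 arrays left out. Members below 0 numbered between 30 and 42 in these fits, and the median of the tested members lay below 0 in 16 of 16 alternatives, from -0.66 to -0.20. In bulk samples of mixed gates, fewer cells of a type and less RNA per cell cannot be told apart.

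**Figure D1:**
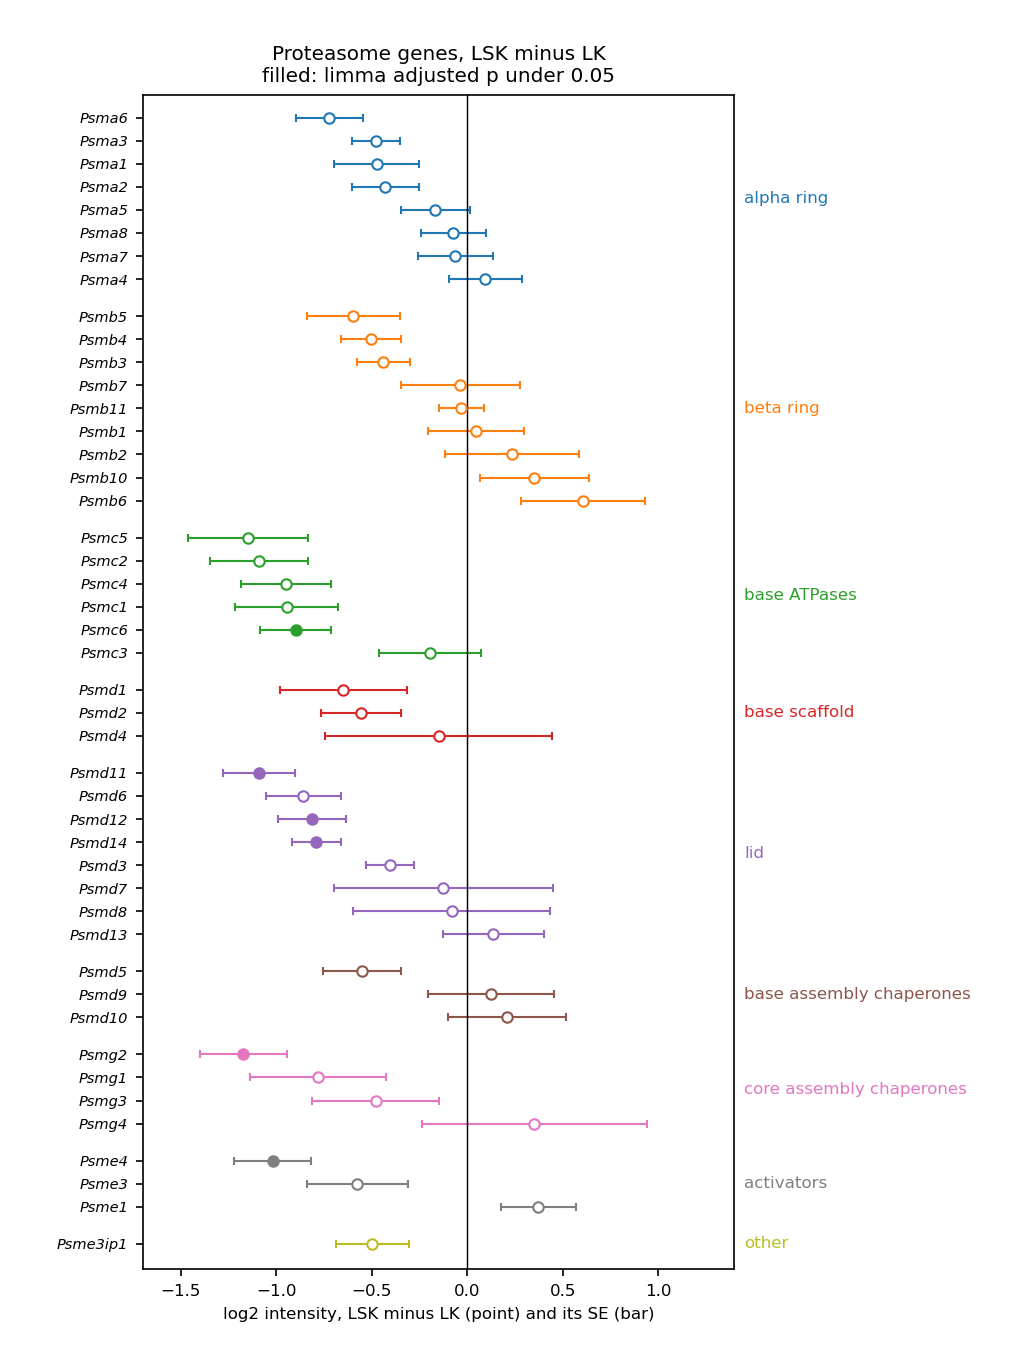
Log2 intensity of LSK minus LK (x axis) for each of the 45 proteasome genes (y axis), grouped by role, with bars for the SE; filled points passed a limma adjusted p of 0.05 and open points did not. The base scaffold label includes the ubiquitin receptor Psmd4. The 6 filled points all lie left of 0, and 35 of the 45 points do.

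The base ATPases had the most negative median of the groups by role. Its 6 ATPases, which form the ring that pulls substrates into the core, had a median log2 difference of -0.95, with 6 of 6 below 0 and 6 of 6 lower in LSK in 3 of 3 same-numbered pairs (27.1% of all genes were lower in 3 of 3 pairs). Psmc6 had log2 intensities of 9.12, 9.37 and 9.78 in LSK and 10.30, 10.38 and 10.29 in LK. Every LSK array lay below every LK array, with the LK arrays tightly together and LSK replicate 3 closest to them. LSK minus LK came to -0.90 (SE 0.19), 1.86-fold lower, and Psmc6 was the 1 ATPase past the threshold (limma adjusted p = 0.0397). In the fit with the replicate block 5 were lower, and without LSK replicate 3 there were 3.

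The next 4 ATPases are described because their differences were as large, a choice made after their values were seen. Psmc5 lay at 5.55, 4.74 and 5.46 in LSK against 6.77, 5.85 and 6.58 in LK, a difference of -1.15 (limma adjusted p = 0.0819, 0.00752 with the replicate block). Psmc2 lay at 8.91, 8.24 and 9.25 against 10.00, 9.80 and 9.87, a difference of -1.09 (limma adjusted p = 0.0566, 0.0269 with the block). In both genes the populations were apart and LSK replicate 2 was the lowest array. Psmc4 lay at 9.83, 9.40 and 10.32 against 10.80, 10.73 and 10.87, a difference of -0.95 (limma adjusted p = 0.0629, 0.0284 with the block). Psmc1 lay at 7.82, 7.26 and 7.86 against 8.92, 8.11 and 8.75, a difference of -0.95 (limma adjusted p = 0.0895, 0.0135 with the block). Psmc3 stood aside from the other 5, at 8.52, 7.79 and 7.94 against 8.60, 7.86 and 8.38. Its populations overlapped and its difference of -0.19 was smaller than its SE of 0.27.

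The rest of the base comprises the large scaffold subunits Psmd1 and Psmd2 and the ubiquitin receptor Psmd4, and 0 of these 3 passed the threshold. Psmd2, with the lowest p, had log2 intensities of 8.51, 7.86 and 8.39 in LSK and 8.95, 8.60 and 8.87 in LK, so that the populations were just apart (difference -0.56, SE 0.21, limma adjusted p = 0.175). Psmd1 had a difference of -0.65 and overlapping arrays (adjusted p = 0.32, 0.0488 with the replicate block). Psmd4 was the least steady, at 6.72, 5.42 and 5.59 in LSK and 6.92, 4.81 and 6.44 in LK. The spread of Psmd4 within LK (SD 1.11) exceeded its difference of -0.15 many times over, and LK replicate 2 was the lowest of its 6 arrays.

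In the lid, 3 of 8 subunits were lower in LSK, 0 higher and 5 not past the threshold, with a median of -0.60. Of all genes, 2.89% were lower and 3.84% higher. Psmd11, a scaffold subunit of the lid that contacts the core, had log2 intensities of 8.04, 8.06 and 8.51 in LSK and 9.50, 9.08 and 9.31 in LK. The populations were apart, with LSK replicate 3 and LK replicate 2 closest to each other. LSK minus LK came to -1.09 (SE 0.19), 2.13-fold lower (limma adjusted p = 0.0232). This rests on the brightest of 8 probe sets, one that several transcripts share by its suffix. The second brightest probe set differed by -0.27 and did not reach an unadjusted p of 0.05 in limma, and 6 more had a mean log2 below 4.

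Psmd14, the deubiquitinase that strips the ubiquitin chain from substrates, gave the lowest p of the 45. It had log2 intensities of 8.99, 8.81 and 9.07 in LSK and 9.78, 9.72 and 9.75 in LK, a difference of -0.79 (SE 0.13, limma adjusted p = 0.0188). Both populations were tight and clearly apart. Psmd12, another lid scaffold, lay at 7.93, 7.62 and 8.21 in LSK against 8.85, 8.63 and 8.73 in LK, a difference of -0.81 (SE 0.18, limma adjusted p = 0.0464). Each of its LSK arrays also lay below every LK array.

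Psmd6 missed the threshold narrowly, with 9.75, 9.35 and 9.97 in LSK and 10.72, 10.36 and 10.57 in LK (difference -0.86, limma adjusted p = 0.0519, 0.0212 with the replicate block). Psmd3 differed by -0.41 at low intensity, near 4 on the log2 scale. Psmd7 and Psmd8 differed by -0.13 and -0.08 with LK replicate 2 far below the other arrays: Psmd8 lay at 7.36, 5.50 and 7.39 in LK and at 6.93, 6.30 and 6.77 in LSK. Without LK replicate 2, both LK arrays of Psmd8 lay above every LSK array. Psmd13 was the member of the lid on the other side of 0, at 4.94, 4.07 and 4.05 in LSK and 4.39, 4.03 and 4.24 in LK. Its populations overlapped (difference 0.14, limma adjusted p = 0.822), and its sign was negative without LSK replicate 1 (-0.16), with all probe sets averaged (-0.041) and with the covariate (-0.28).

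**Figure D2:**
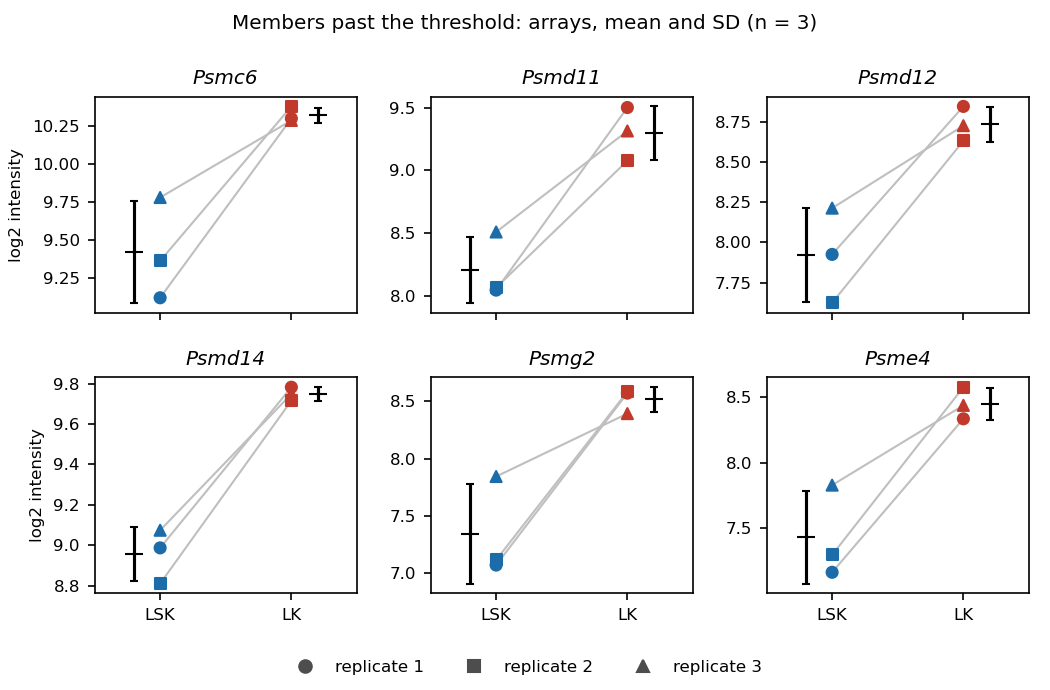
Log2 intensity (y axis, a separate scale in each panel) of the 6 members past the threshold in LSK and LK arrays (x axis); symbols mark the replicate number, grey lines join arrays with the same number, and black bars give the mean and SD of 3 arrays. Every line rises from LSK to LK, and LSK replicate 3 is the highest LSK array in each panel.

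The promoters of the members past the threshold were read because these genes were lower together. Of the 45 genes, 37 were in the promoter table (RefSeq, GRCm38.p6), with windows from 250 bases before to 50 after the start, and Psmg2 is not shown. The motif CGGAAG, the core recognised by ETS transcription factors, was found on either strand in 23 of the 37 (62.2%), against 27.1% of the array's genes with a window in the table. It stood in 13 of 14 base and lid genes and in 5 of 13 core genes. The base or lid gene without it was the ATPase Psmc5, which had the most negative difference of the base and lid (-1.15). Genes with the motif included Psmd13 and Psma4, which lay above 0, and Psmb11, at the floor of the array. This motif was singled out after the counts of 9 motifs were seen, and a match is a description of letters. The stretches of the 5 members past the threshold that the table holds, and of the ATPase Psmc1 with 3 copies, are printed 5′ to 3′ along the gene, with CGGAAG or its reverse complement in capitals.
Psmc6, GRCm38.p6 chr14:45329714-45329773, plus strand: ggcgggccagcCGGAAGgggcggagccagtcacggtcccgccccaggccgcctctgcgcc
Psmd11, GRCm38.p6 chr11:80428555-80428614, plus strand: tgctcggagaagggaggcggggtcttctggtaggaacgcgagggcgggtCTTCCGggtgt
Psmd12, GRCm38.p6 chr11:107479468-107479527, plus strand: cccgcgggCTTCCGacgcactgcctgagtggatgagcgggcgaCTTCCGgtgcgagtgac
Psmd14, GRCm38.p6 chr2:61711564-61711623, plus strand: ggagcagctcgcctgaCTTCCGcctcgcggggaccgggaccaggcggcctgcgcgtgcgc
Psme4, GRCm38.p6 chr11:30771715-30771774, plus strand: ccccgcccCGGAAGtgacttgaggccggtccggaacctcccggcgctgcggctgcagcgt
Psmc1, GRCm38.p6 chr12:100110097-100110201, plus strand: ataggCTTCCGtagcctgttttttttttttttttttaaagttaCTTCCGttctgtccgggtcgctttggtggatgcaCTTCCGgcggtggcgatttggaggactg

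All these stretches lie before the annotated start of transcription, and those of Psmd11, Psmd12, Psme4 and Psmc1 end at the base next to it. The longer form CCGGAAGT, which contains CGGAAG, was in 24.3% of the members and 6.65% of the array's genes. The antioxidant response motif TGACNNNGC, at which Nfe2l1 is known to drive proteasome genes, was in 16.2% of the members and 16.1% of the array's genes. Its 6 genes were Psmb5, Psmb6, Psmc6, Psmd9, Psmd12 and Psme4. The other motifs were CCAAT (37.8% of members, 42.0% of genes), CACGTG (13.5% and 10.3%), GCATGC (16.2% and 10.2%) with a longer form of it (5.41% and 1.75%), and AAGATGG (16.2% and 7.55%) with a longer form of it (2.70% and 1.26%). The antioxidant response motif is shown in capitals for the catalytic subunits Psmb5 and Psmb6, whose RNA levels lay on opposite sides of 0.
Psmb5, GRCm38.p6 chr14:54617996-54618055, minus strand: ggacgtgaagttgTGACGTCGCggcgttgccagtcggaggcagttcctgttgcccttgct
Psmb6, GRCm38.p6 chr11:70525297-70525356, plus strand: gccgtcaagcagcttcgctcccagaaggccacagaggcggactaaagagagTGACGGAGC

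In the core, 0 of 17 ring subunits passed the threshold in either direction, with 6 lower and 0 higher at an unadjusted limma p under 0.05, against 11.9% and 10.5% of all genes. With the replicate block 1 was lower (Psma6). The 8 alpha subunits, which form the gated outer rings, had a median of -0.30. Psma6 had the lowest p of the alpha ring, with log2 intensities of 10.14, 10.02 and 10.53 in LSK and 11.00, 10.79 and 11.06 in LK. Its populations were apart (difference -0.72, SE 0.17, limma adjusted p = 0.0592, 0.0274 with the block). Psma3 was also apart, at 10.10, 10.17 and 10.30 against 10.73, 10.56 and 10.71 (difference -0.48, limma adjusted p = 0.0753). Psma1 and Psma2 differed by -0.48 and -0.43 and overlapped, and Psma5 and Psma7 by -0.17 and -0.06. Psma4 lay at 7.65, 7.57 and 7.07 in LSK and 7.51, 7.24 and 7.26 in LK, so that its populations overlapped (difference 0.09, limma adjusted p = 0.832). Its sign was negative without LSK replicate 1 (-0.015), without both replicate 2 arrays (-0.027) and with the covariate (-0.33). Psma8, the alpha subunit known from testis, had means of 4.02 and 4.09, near the floor of the array.

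The 9 beta subunits, which line the cutting chamber, had a median of -0.03, the value of the dim Psmb11, and lay on both sides of 0. Of the 3 catalytic subunits, Psmb5, with chymotrypsin-like activity, had log2 intensities of 9.31, 8.76 and 9.08 in LSK and 9.83, 9.19 and 9.92 in LK. It was lower in LSK in 3 of 3 pairs but the arrays overlapped (difference -0.60, SE 0.24, limma adjusted p = 0.211, 0.0513 with the block). Psmb7, with trypsin-like activity, lay at 9.13, 8.62 and 8.39 against 9.13, 8.15 and 8.99. Its difference of -0.04 (SE 0.31, limma adjusted p = 0.965) was positive in 5 of 16 alternatives: with cyclic loess normalisation (0.072) and in fits with 1 array left out, namely replicate 2 (0.011) or 3 (0.13) of LSK and replicate 1 (0.15) or 3 (0.081) of LK. Psmb6, with caspase-like activity, lay at 8.25, 7.75 and 7.36 against 7.54, 6.59 and 7.42, the largest positive difference of the 45 (0.61, SE 0.32, limma adjusted p = 0.341). Its populations overlapped, and with the covariate its difference was -0.18.

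The structural subunit Psmb4 had the lowest p of the beta ring, at 10.44, 10.20 and 10.67 in LSK and 10.99, 10.85 and 10.97 in LK. Its populations were apart (difference -0.50, SE 0.16, limma adjusted p = 0.117), as were those of Psmb3 (difference -0.44). Psmb1 and Psmb2 differed by 0.05 and 0.24, both within their SE of 0.25 and 0.35. Psmb11, the thymus subunit, had means of 2.60 and 2.63 at the bottom of the range. Psmb10, which replaces Psmb7 in the interferon-inducible immunoproteasome, lay at 7.06, 6.33 and 6.08 in LSK and 6.44, 5.83 and 6.14 in LK. It overlapped (difference 0.35, SE 0.29, limma adjusted p = 0.545) and turned negative with the covariate (-0.25). For the other 2 inducible subunits, which the choice of members leaves out, every LSK array lay above every LK array. The differences were 0.75 for Psmb8 (limma adjusted p = 0.0583, 0.0481 with the block) and 0.85 for Psmb9 (limma adjusted p = 0.078, 0.0321 with the block).

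**Figure D3:**
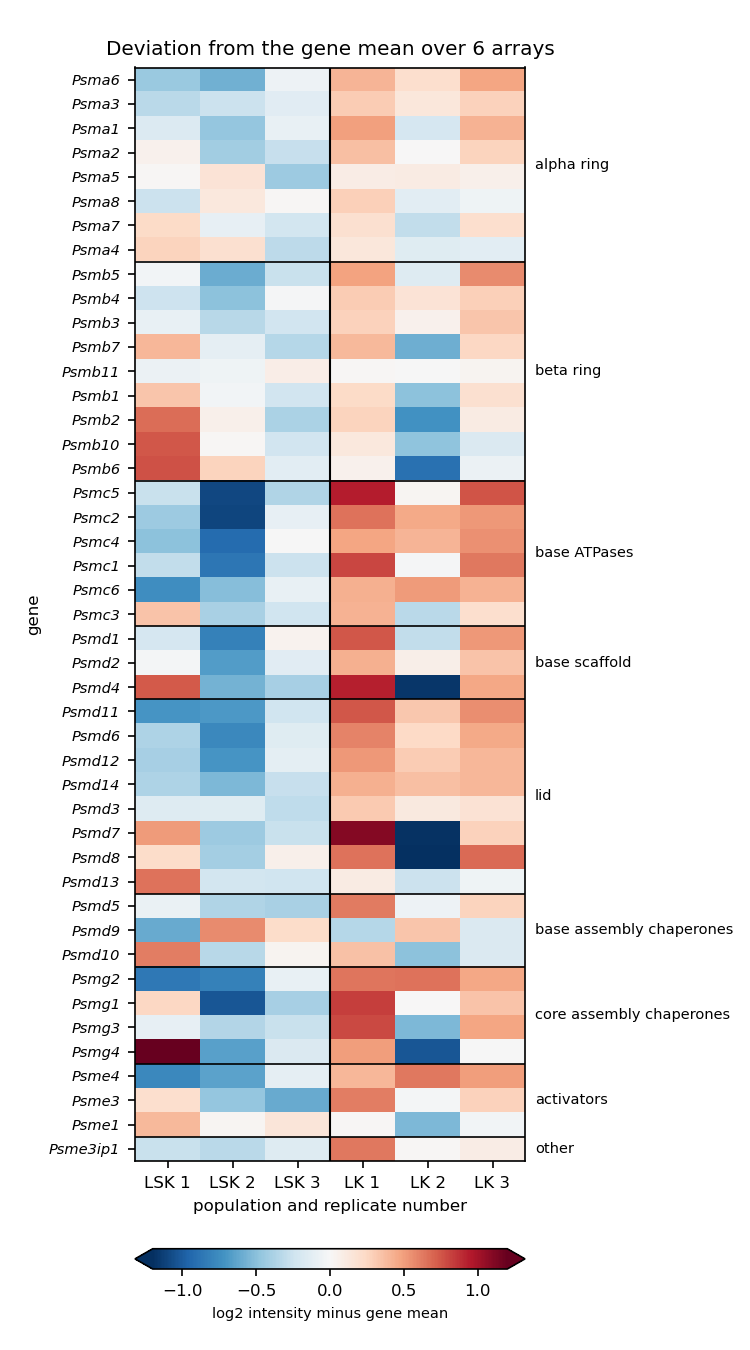
Log2 intensity minus the mean of each gene over 6 arrays (colour, red above and blue below the mean, saturated beyond 1.2 on either side) for the 45 proteasome genes (rows, by role) on each array (columns). The ATPase and lid rows are mostly blue in LSK and red in LK, and several beta ring and chaperone rows are bluest on LK replicate 2.

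Set side by side, the base and lid together (17 genes) had a median of -0.79 with 4 lower. The 2 core rings together (17 genes) had a median of -0.07 with 0 lower, and 2.89% of all genes were lower. The core median was the value of Psma8 and the beta ring median that of Psmb11, both near the floor of the array. With the filter on dim probe sets, the medians were -0.43 for the alpha ring and 0.0050 for the beta ring. Those of the ATPases and the lid were then -0.95 and -0.81. Between same-numbered arrays 1, 2 and 3, the median base and lid gene differed by -0.92, -0.85 and -0.55, and the median core gene by -0.08, 0.07 and -0.42. Single genes varied around these medians: 13 of the 17 base and lid genes and 7 of the 17 core genes were lower in LSK in 3 of 3 pairs. Within the core, the median of the alpha ring was -0.43, -0.10 and -0.46 in the 3 pairs and that of the beta ring 0.0075, 0.46 and -0.42. No test of this difference between the groups of genes was made, since the groups were described with earlier results known. The arrays also differed in measures of quality. LK replicate 2 was the lowest LK array for 40 of the 45 members (41.3% of all genes) and LSK replicate 2 the lowest LSK array for 25 (41.9%). When the excess of 3' signal was held as a covariate, the medians came close together, at -0.66 for the ATPases, -0.71 for the lid, -0.47 for the alpha ring and -0.49 for the beta ring. That excess had a mean of 2.64 in LSK and 3.53 in LK, so covariate and population cannot be fully told apart. With cyclic loess normalisation the beta ring median was 0.072 and that of the ATPases -0.85. The part of array quality in the gap was not tested.

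**Figure D4:**
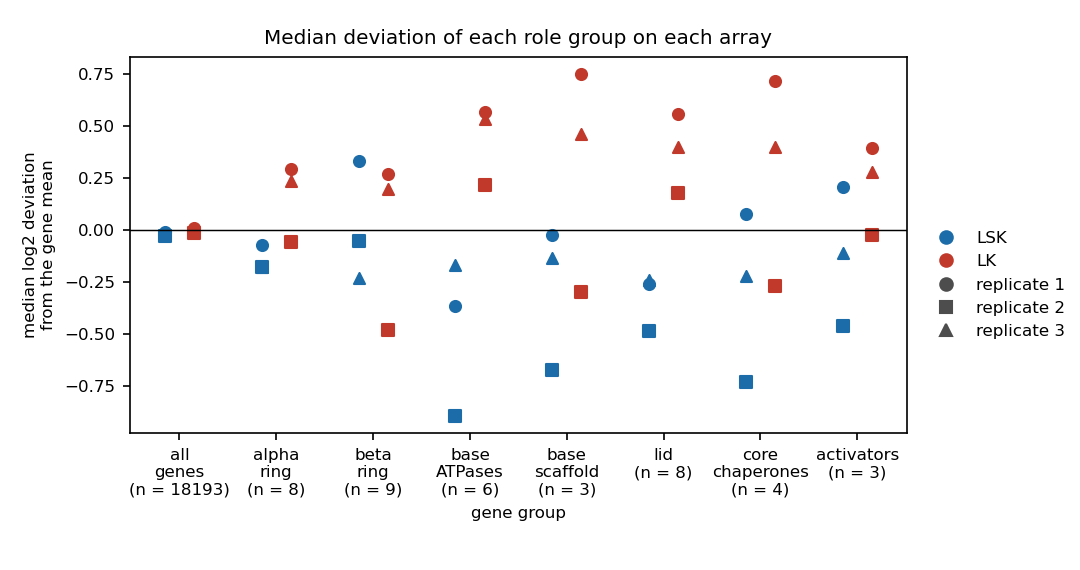
Median over each role group of the log2 deviation from the gene mean (y axis) on each array (blue LSK, red LK; symbols give the replicate number), with all 18193 genes at the left. LSK and LK arrays are apart for the ATPases, the lid and, narrowly, the alpha ring, while in the beta ring LSK replicate 1 is the highest and LK replicate 2 the lowest point.

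Of the 4 chaperones that assemble the core, 1 was lower in LSK and 0 higher, against 2.89% and 3.84% of all genes. Psmg2, which works in a pair with Psmg1 to build the alpha ring, had log2 intensities of 7.07, 7.12 and 7.84 in LSK and 8.57, 8.58 and 8.39 in LK. The populations were apart and the difference of -1.17 (SE 0.23, limma adjusted p = 0.0339) was the most negative of the 45 genes. Psmg1, its partner, lay at 6.37, 5.09 and 5.73 against 6.95, 6.12 and 6.46. Its arrays overlapped, but it was lower in LSK in 3 of 3 pairs (difference -0.78, limma adjusted p = 0.264, 0.027 with the block). Psmg3 and Psmg4 form the other pair of chaperones. Psmg3 differed by -0.48 (limma adjusted p = 0.474) and Psmg4 by 0.35, with values of 7.15, 5.15 and 5.63 in LSK and 6.30, 4.77 and 5.80 in LK. The spread of Psmg4 within LSK (SD 1.04) exceeded its difference, which was negative without LSK replicate 1 (-0.23), without LK replicate 2 (-0.07) and with the covariate (-0.54).

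The 3 chaperones of the base, Psmd5, Psmd9 and Psmd10, hold the ATPases before the ring closes, and 0 passed the threshold. Psmd5 had log2 intensities of 7.79, 7.52 and 7.48 in LSK and 8.50, 7.81 and 8.14 in LK, with populations just apart (difference -0.55, SE 0.20, limma adjusted p = 0.172). Psmd9 and Psmd10 differed by 0.12 and 0.21, within their SE of 0.33 and 0.31.

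Of the 3 activators measured, 1 was lower in LSK and 0 higher, against 2.89% and 3.84% of all genes. Psme4, a large nuclear activator that opens the core without ATP, lay at 7.16, 7.30 and 7.83 in LSK and 8.33, 8.58 and 8.44 in LK. The populations were apart, with a difference of -1.02 (SE 0.20), or 2.03-fold, and a limma adjusted p of 0.0343. It was shown by the brightest of 6 probe sets. The next brightest also differed downward (-0.86), and 2 others with means of 4.84 and 4.73 differed by 0.63 and 0.04, none of these 2 at an unadjusted limma p under 0.05. Psme3, the nuclear activator of the other family, lay at 8.71, 8.04 and 7.90 against 9.12, 8.48 and 8.78, with overlap (difference -0.58, limma adjusted p = 0.266). Psme1, a subunit of the interferon-inducible activator, ran the other way, at 9.17, 8.80 and 8.92 in LSK and 8.79, 8.24 and 8.74 in LK. Its LSK arrays all lay above its LK arrays, but its difference of 0.37 (SE 0.19) did not pass (limma adjusted p = 0.329). Psme2 shares its probe set with another symbol and is not analysed here. Psme3ip1, which the symbol rule also takes in, encodes a protein that binds Psme3 and is no subunit. It lay at 5.20, 5.14 and 5.32 against 6.10, 5.49 and 5.56, apart in level but not past the threshold (difference -0.50, limma adjusted p = 0.188).

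Outside these names, 27 partner genes of the proteasome were measured of 37 listed, a count that leaves out Psme3ip1. Of them 3 were lower in LSK, 0 higher and 24 not past the threshold, against 2.89% lower and 3.84% higher among all genes. Their median log2 difference was -0.09, against -0.02 over all genes. The deubiquitinases Usp14 and Uchl5, which bind the regulatory particle, were both lower. Usp14 had log2 intensities of 7.50, 7.46 and 7.77 in LSK and 8.41, 8.40 and 8.55 in LK, clearly apart (difference -0.88, SE 0.14, limma adjusted p = 0.0177). Uchl5, added to complete the count, lay at 8.38, 8.14 and 8.23 against 8.87, 8.90 and 8.94 (difference -0.66, limma adjusted p = 0.0322). The third was Nfe2l2, a stress transcription factor that can raise proteasome genes, at 6.25, 6.55 and 6.82 against 8.03, 7.34 and 7.48 (difference -1.08, SE 0.24, limma adjusted p = 0.0453). The call of Nfe2l2 ended in 10 of 16 alternatives, among them each fit with an array left out, and with all probe sets averaged its difference was -0.35 (limma adjusted p = 0.375). Usp14 lost its call in 7 of 16, with a difference of -0.67 or further from 0 in each. With the replicate block the import factor Akirin2 was also lower (difference -1.07, limma adjusted p = 0.0465) and Zfand5 higher. Nfe2l1, a paralog of Nfe2l2, restores proteasome genes when proteasome activity falls. Its log2 intensities were 7.47, 6.81 and 6.41 in LSK and 6.02, 5.95 and 6.12 in LK. The LSK arrays were all higher, spread widely, and the difference of 0.87 did not pass (limma adjusted p = 0.11). Nfe2l1 passed in 1 of 16 alternatives (limma adjusted p = 0.0486). Pomp, which closes the assembly of the core, overlapped at 9.45, 9.23 and 9.11 against 9.29, 8.81 and 9.18 (difference 0.17, limma adjusted p = 0.646), and its sign was negative with the covariate (-0.16).

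The other probe sets of the members were compared with those shown. The members had 94 probe sets in all, and 24 members had more than 1. For 3 members, Psma6, Psmb4 and Psmc2, the suffix of the probe set shown marks possible binding to other transcripts. Of the 49 probe sets not shown, 33 had a mean log2 under 4. In the direction of the gene's own value lay 27 of the 49, 9 of them at an unadjusted limma p under 0.05, and 1 lay opposite at that p, a dim probe set of Psmd13. For Psmc4 and Psmd6 a second probe set gave a like difference, -0.92 and -0.98. For Psma6 and Psmb4 a second bright probe set differed by less, -0.28 and -0.16. For Psmb3 and Psma5 the second brightest lay on the other side of 0, at 0.18 and 0.43. None of these last 4 reached an unadjusted limma p under 0.05. The 6 members past the threshold had 16 probe sets besides those shown, of which 9 were lower and 7 higher in LSK, with 3 lower and 0 higher at an unadjusted limma p under 0.05.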

How the data were processed

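The deposited table held intensities of 45101 probe sets on 6 arrays, on a linear scale, made by the authors with RMA in affy (R 2.11.0), as the submitters' processing notes list. The method equalises the arrays' distributions at the level of single probes, so a change shared by all genes cannot be seen. The upper quartiles of the deposited probe set values still ran from 20.8 to 25.8. RNA was amplified linearly before labelling, per the labels' protocols. Log2 was taken here. Of the probe sets, 34945 named 1 gene symbol in the platform annotation, 932 several and 9160 none, and 64 were controls. Each gene was represented by its brightest probe set over the 6 arrays. The comparison of the populations used limma (version 3.58.1, R 4.3.3; lmFit, then eBayes, two-sided), with p-values adjusted by Benjamini-Hochberg over 18193 genes. The code was tested on simulated data.

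Errors (SE, and SD over 3 arrays) are in log2 units. Intensities of different probe sets are not comparable between genes. Same-numbered arrays deviated together (correlation of deviations from the population means 0.42, 0.43 and 0.27, at most 0.04 between different numbers). On that basis the numbers were treated as pairs in the pair counts and in the fit with the replicate block, although no label says what they stand for. The fit used throughout held no term for the replicate number, so its p-values are unpaired. The members, roles, partner list, markers and alternatives were chosen with earlier results of these data known. Genes given in full are, in each role, the 2 largest past the threshold (or the lowest p) and the largest opposite member, with the catalytic and inducible subunits, the activators, the 2 largest partners each way, Nfe2l1 and Pomp; Psmd14 was added to complete the count, and the remaining values were added after they were seen. Psme2, named in that rule, has no probe set of its own.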

Additional observations from a re-analysis of the deposited data

How the results depend on the processing

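Under the fit used throughout, 6 members, 3 partner genes and 1225 genes in all were called. With the replicate block 2617 genes passed, 14 members were lower in LSK (5 ATPases, 1 alpha subunit, 1 base scaffold, 2 core chaperones), and 1 partner gene, Zfand5, was higher. The block ended none of the 6 member calls. With array weights 2606 genes passed, and 14 members were lower (5 ATPases, 2 alpha and 1 beta subunit), with 1 partner gene higher. The members lower numbered 12 with renewed quantile normalisation (5 ATPases, 1 alpha subunit; 4.51% of all genes tested were lower), 11 with the filter on dim probe sets (4 ATPases, 1 alpha subunit; 12.5%), and 10 with trend and robust variances (3 ATPases, 1 alpha subunit; 3.92%). With cyclic loess normalisation 9 members were lower, 3 of them ATPases (3.78% of all genes lower). Each of these 6 fits held the same 6 genes. The share of all genes lower was 2.89% in the fit used throughout, 7.36% with the block and 7.15% with array weights. The choice of probe set mattered more. With a unique-suffix probe set first, 2 members were lower (1 in the lid, 0 ATPases, 0 activators), 1 partner gene was lower, and the alpha ring median was -0.0091. In that fit 2.01% of all genes were lower. With the mean of all probe sets, dim ones counted as much as bright ones. There 0 core chaperones, 0 activators and 1 partner gene were lower. The medians were -0.20 over all members, -0.11 in the alpha ring and -0.22 in the activators. Of the 4 calls with that mean, 2 were among the 6, and 2.10% of all genes were lower.

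With the 3' minus 5' covariate 25 genes passed, and 0 members, ATPases, lid genes, core chaperones, activators or partner genes were lower (0 genes of the array were lower); the alpha and beta ring medians were -0.47 and -0.49. Without replicate 2 of both populations 537 genes passed and 0.912% of all genes were lower. There were 2 members lower (2 ATPases, 0 lid genes, core chaperones or activators) and 0 partner genes lower, and Psma4 turned negative (-0.027). Leaving out an array gave 306 to 1269 genes in all, 0 to 10 members, 0 to 3 ATPases, 0 to 4 lid genes, 0 to 1 alpha subunits, core chaperones and activators, and 0 to 2 partner genes lower, with 0 to 1 partner genes higher. The share of all genes lower ran from 0.418% to 3.77%. Leaving out arrays also means fewer samples; the cause of the other changes was not tested.

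Signs turned for values that did not pass: Psmb7 with cyclic loess normalisation (0.072), Psmd13 with the mean of all probe sets (-0.041), and with the covariate Psma4 (-0.33), Psmb6 (-0.18), Psmd13 (-0.28), Psmg4 (-0.54), Psmb10 (-0.25) and Pomp (-0.16). Without 1 array the lowest and highest values were -0.015 and 0.27 for Psma4, -0.16 and 0.29 for Psmd13, -0.23 and 0.76 for Psmg4, and -0.34 and 0.15 for Psmb7. Of 383 values of named genes under the alternatives, 294 kept direction and side of the threshold, 65 lost the call, 7 gained it and 17 turned sign. Values near the lower end of the range (Psma8, Psmb11, Psmd3, Psmd7, Psmd13) limit what their differences can show.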
